A study of Sus scrofa with 50 samples.

Results

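Chemokines are small secreted proteins that guide leukocytes, and chemokine receptors are the G protein-coupled receptors that read them. This account covers 37 Swiss-Prot entries, 25 ligands and 12 receptors, of 14532 entries measured in Korean minipigs. They were chosen by name: a transcript was taken when the recommended protein name of its best Swiss-Prot match began with C-C or C-X-C motif chemokine, or with C-C or C-X-C chemokine receptor. This gave 61 of 57085 assembled transcripts, and their TPM (a length-normalised share of the library) was summed by entry. Entry names are kept as Swiss-Prot writes them, so that CXL13 is the protein of the gene CXCL13.

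The study sequenced poly(A)-selected, stranded mRNA libraries of heart, kidney, liver, lung and spleen (Sus scrofa). There were 5 ET-type pigs (S0235, S0242, S0276, S0309, S0326) against 5 of the L-type (S0349, S0355, S0377, S0384, S0385), with 1 library per animal and tissue, 50 in all. The labels give no age, sex, treatment or allele for either type, and do not say what the letters ET and L stand for. Each animal is 1 replicate, and the depth of the libraries is unknown because the files hold TPM only.

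Homeostatic chemokines are made without infection and organise lymphoid tissue. CCL19 and CCL21, from stromal and lymphatic endothelial cells, draw T cells and dendritic cells that carry CCR7, and CXCL13 draws B cells that carry CXCR5 into follicles. Inflammatory chemokines such as CCL2, CCL5 and CXCL10 are induced on demand and draw monocytes, effector T cells and natural killer cells, while CXCL2 acts on neutrophils through CXCR2. Others are made constitutively by parenchyma, such as CCL16 by liver and CXCL17 by airway epithelium.

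The entries differ in how well they are matched. 23 rest on 1 transcript, 6 matched a pig protein, 31 had every match at 70% identity or more, and 4 (CCL14, CCL23, CCL24 and CXL13) had none that high. CXL13 rests on 1 transcript with 46.2% identity to the human protein. By symbol, 34 of the 37 were found in the RefSeq annotation of Sscrofa11.1, the build named in the submitters' processing notes. CCL3, CCL23 and CXL17 were not found, so no pig gene of the same name was traced for them. CCL21 lies on chromosome 10 at 32093783 to 32094482 and CCL19 begins 15884 bases after it, at 32110366 to 32112529. CCL14, CCL16, CCL2, CCL4, CCL5 and CCL8 share chromosome 12 with CCR7, which lies at 21857286 to 21869211. These positions are those of the named genes, since the transcripts themselves were not aligned here.

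In bulk tissue, fewer cells of a type and less RNA per cell cannot be told apart. Among the 49 libraries other than the kidney of S0235, the summed TPM of the 37 entries ran from 147 in a heart to 4683 in a liver. In spleen, haemoglobin entries took 11.0% to 33.5% of the TPM in ET-type and 0.548% to 14.9% in L-type animals, of which S0377, S0384 and S0385 lay below every ET-type spleen. Kidney epithelium markers summed to 136 TPM in the kidney library of S0235 against 2073 to 8908 TPM in the other kidneys, so this library is described apart and is left out of the kidney, tissue and interaction tests. The hepatocyte list, the check of the liver label, summed to 87229 to 232729 TPM in livers.

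**Figure D1:**
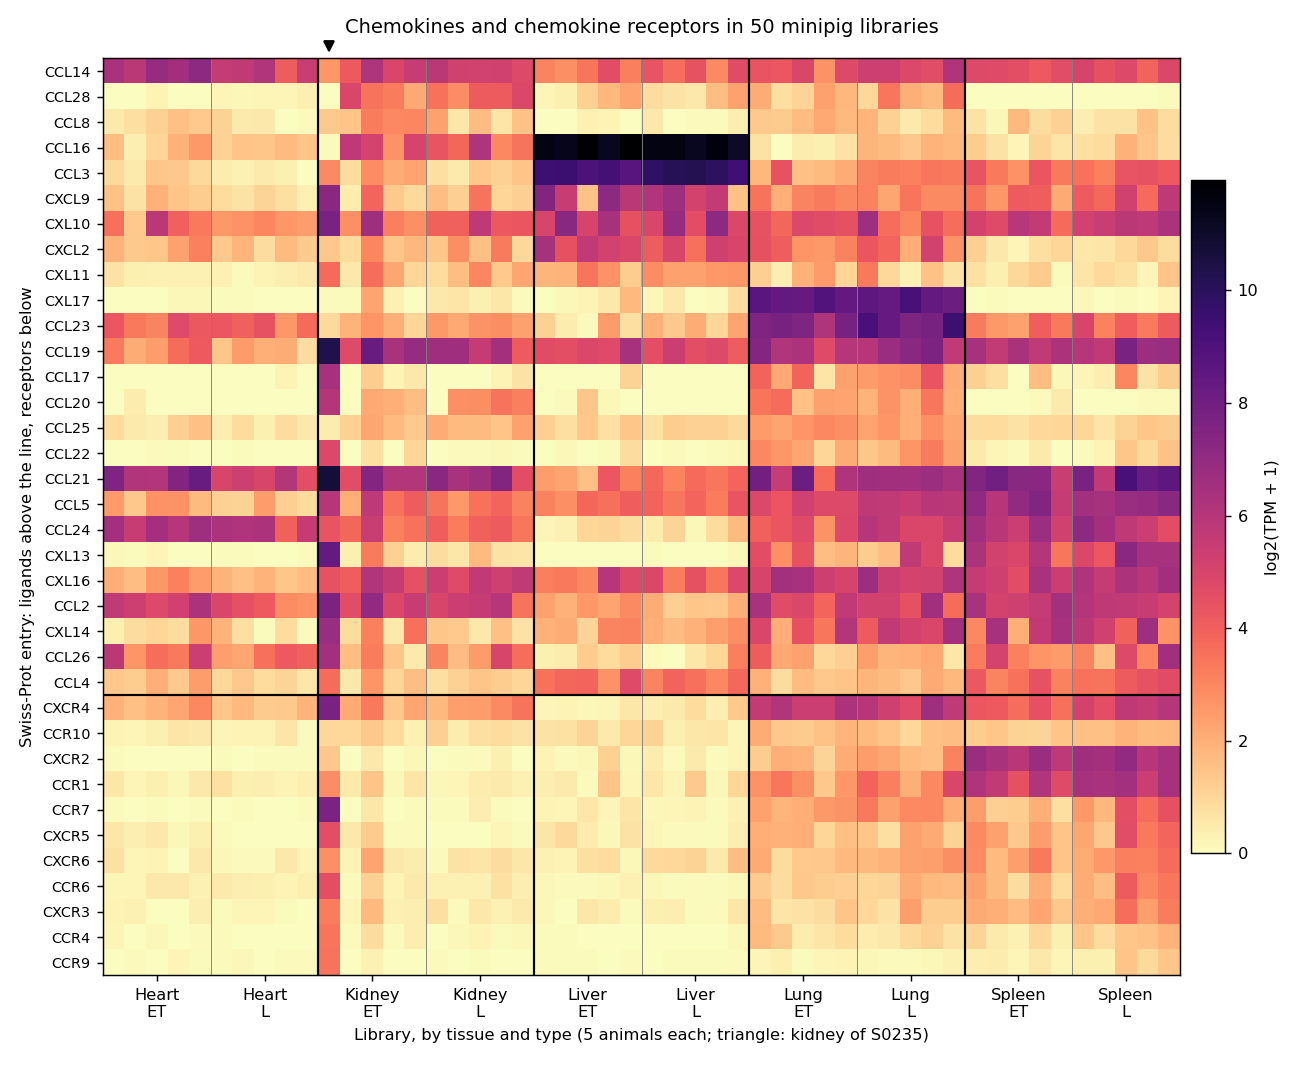
Each column is a library and each row an entry (ligands above the line, receptors below), with colour giving log2(TPM + 1). Liver is marked by CCL16, lung by CXL17 and CCL23, spleen by CXCR2 and CCR1, and the kidney of S0235 (triangle) by CCL21, CCL19, CXL13 and CCR7, each above all other kidneys.

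The tissues used different ligands, and most receptors were highest in spleen. Over the 49 libraries, 19 entries had their highest mean in spleen, 9 in lung, 6 in liver, 2 in kidney and 1 in heart, with 10 of the 12 receptors in spleen and the other 2, CXCR4 and CCR10, in lung. For 5 entries the leading tissue lay above the next in every library: CCL16 and CCL3 in liver, CXL17 and CCL23 in lung, and CXCR2 in spleen. The matching shares of all units were not computed, so these counts only describe the entries. Some leads were narrow, such as 1.01 times the next tissue for CCL19 and for CCL24. An entry was called higher in a tissue when limma gave an adjusted p (Benjamini-Hochberg over all 29725 units tested) below 0.05, its log2(TPM + 1) lay at least 1 above the mean of the other 4 tissues, and its mean log2 value was the highest of the 5. Under this rule 14 of 35 tested entries were called in spleen, where 9.59% of all units were. The counts were 9 in lung (26.5% of all units), 6 in liver (7.95%), 3 in heart (5.48%) and 2 in kidney (12.9%). Against all units, the share of entries called lay above in spleen and liver, near in lung and below in kidney. In heart 3 entries were too few to place against the background. After median-ratio scaling lung had 5, where 11.4% of all units were called, and heart had 1 with haemoglobin left out or with matches of at least 70% identity.

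Liver was led by CCL16, a chemokine of hepatocytes. Its TPM was 2992, 2546, 3856, 2369 and 3963 in the ET-type livers and 3040, 3027, 2432, 3330 and 2101 in the L-type livers, with the animals of each type always in the order given above. The types overlapped, with 2 ET-type livers above and 1 L-type liver below all of the other type. CCL16 made up 63.9% to 84.6% of the summed TPM of all 37 entries in each liver, and its next highest tissue, kidney, averaged 26.8 ± 22.3 TPM (SD, n = 9). Its log2 level in liver lay 9.54 ± 0.24 (SE) above the mean of the other tissues.

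The second liver entry, CCL3, averaged 790 ± 252 TPM (SD, n = 10) there against 13.8 ± 5.78 in spleen, the next tissue. CCL3 is the macrophage inflammatory protein 1-alpha read by CCR1, and 3 transcripts share the entry. The liver level rests on 1 of them, of 66.7% identity to the bovine protein, which averaged 787 TPM in liver and 0.449 TPM or less in each other tissue. A different transcript, of 85.3% identity, averaged 9.50 TPM in spleen, 5.42 in lung and 1.14 in liver. Kept to matches of at least 70% identity, the log2 difference of CCL3 in liver from the other tissues was -0.80, so the entry pools transcripts with opposite tissue profiles.

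Liver was also highest in the ligands of CXCR3, which draw activated T cells and natural killer cells after interferon. CXCL9 was 174, 44.5, 1.84, 141 and 56.0 TPM in the ET-type livers and 67.5, 99.9, 33.8, 47.0 and 1.90 TPM in the L-type livers. One liver of each type, S0276 and S0385, was near 0 while the others ranged over 33.8 to 174 TPM. CXL10 averaged 65.8 ± 52.9 TPM (SD, n = 10), with a median of 31.0 and a maximum of 153 TPM. Spleen, its next tissue, averaged 44.0 ± 18.6 TPM. CXL11 averaged 4.69 ± 2.39 TPM (SD, n = 10), against 3.47 ± 3.53 TPM in kidney, its next tissue. For both, liver and the next tissue did not differ in TPM beyond their spread. CXCR3 itself averaged only 0.225 TPM in liver and was highest in spleen, at 4.44 ± 3.09 TPM. CXCL2, a neutrophil ligand, was called in liver too, at 34.5 ± 21.05 TPM and a log2 difference of 2.96 ± 0.27 (SE), whereas its receptor CXCR2 averaged 0.273 TPM there.

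Lung was led by CXL17, a mucosal chemokine. It was 410, 329, 315, 454 and 334 TPM in ET-type lungs and 367, 323, 559, 334 and 277 TPM in L-type lungs, and averaged 0.645 TPM in kidney, the next tissue. Its log2 difference from the other tissues was 8.24 ± 0.15 (SE). CCL23, a ligand of CCR1, followed at 183, 218, 193, 71.9 and 221 TPM in ET-type lungs and 578, 311, 192, 217 and 726 TPM in L-type lungs. The L-type values spread over a wider range and the groups overlapped. CCL17 and CCL22, the ligands of CCR4 on skin-homing and regulatory T cells, were called in lung at 7.53 ± 6.14 and 4.16 ± 2.36 TPM (SD, n = 10). CXCR4, the receptor of CXCL12, was the receptor with the highest level in lung, at 54.1 ± 21.7 TPM against 29.5 ± 18.2 in spleen.

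Spleen led in CXCR2 and CCR1, receptors of neutrophils and monocytes. The neutrophil marker list, which includes CXCR2, was higher in lung. It summed to 440 to 1737 TPM in ET-type and 876 to 1850 TPM in L-type lungs. In spleens it summed to 74.98 to 146 TPM and 74.96 to 143 TPM. CXCR2 was 107, 79.9, 56.9, 109 and 53.7 TPM in ET-type spleens and 96.5, 88.2, 128, 60.7 and 81.2 TPM in L-type spleens, 27.6 times the lung mean of 3.12 TPM. CCR1, a receptor of CCL3, CCL5 and CCL23, was 70.5, 48.3, 20.7, 67.0 and 26.0 TPM in ET-type and 84.3, 80.4, 89.7, 40.5 and 82.8 TPM in L-type spleens. The types overlapped for both. Their log2 differences from the other tissues were 5.79 ± 0.13 and 4.70 ± 0.21 (SE). CXL13 (4.47 ± 0.36), CCL5 (3.14 ± 0.25) and CXL14 (2.42 ± 0.40) were the next largest, CXL14 being a chemokine of stroma and epithelium.

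Heart and kidney had the fewest entries called higher. In heart these were CCL24, an eotaxin, with CCL26, another eotaxin, and CCL14. CCL24 was 91.4, 43.3, 86.5, 63.7 and 99.0 TPM in ET-type and 77.9, 70.3, 73.5, 14.5 and 45.5 TPM in L-type hearts. On the log2 scale CCL24 lay 2.11 ± 0.26 (SE) above the mean of the other tissues, but in TPM spleen averaged 67.5 and heart 66.5, so these neighbours did not differ beyond their spread. Nor did they for CCL26, which averaged 17.1 ± 17.0 TPM (SD) in heart and 19.4 ± 27.4 TPM in spleen. CCL14 averaged 70.6 ± 37.1 TPM in heart and 39.1 ± 16.7 TPM in kidney, its next tissue. In kidney, CCL28, an epithelial chemokine read by CCR10, was 29.6, 10.04, 8.38 and 3.55 TPM in the ET-type kidneys of S0242, S0276, S0309 and S0326. It was 10.6, 6.31, 16.4, 16.5 and 28.7 TPM in L-type kidneys. CCL28 was at 0.00654 TPM on average in spleen.

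Ligands and their receptors were often highest in different tissues. CCL20, the ligand of CCR6, averaged 5.48 TPM in lung and 4.30 in kidney but 0.0621 in spleen, where CCR6 was highest at 4.90 ± 4.91 TPM (SD, n = 10). CCL25, the gut-homing ligand of CCR9, was highest in lung at 4.78 ± 1.21 TPM, and CCR9 in spleen at 0.626 ± 0.618 TPM. CCL2 averaged 52.7 TPM in spleen and 45.9 in kidney; its receptor CCR2 was not analysed here. SDF1 (CXCL12), which is outside the naming rule, averaged 466 TPM in spleen and 92.1 TPM in lung, the reverse of CXCR4. CCL4 and CCL5 were highest in spleen, as was CCR1, a receptor of CCL5.

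CCL21 and CCL19 were spread over more tissues than their receptor CCR7, while CXL13 and CXCR5 were both highest in spleen, then lung. CCL21 averaged 226 ± 155 TPM in spleen, 110 ± 81.7 in lung, 98.8 in heart, 94.2 in kidney and 9.12 in liver. CCL19 averaged 95.8 ± 56.4 TPM in lung, 95.2 ± 81.2 in kidney and 87.2 in spleen, which did not differ beyond their spread, then 31.0 in liver and 5.82 in heart. Their receptor CCR7 averaged 7.27 ± 8.14 TPM in spleen and 4.93 ± 2.07 in lung, and 0.229 or less elsewhere. CXL13 averaged 57.7 ± 41.9 TPM in spleen, 13.7 ± 16.4 in lung and 1.71 or less elsewhere, and its receptor CXCR5 7.03 ± 7.07 and 2.28 ± 1.11 TPM in spleen and lung.

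**Figure D2:**
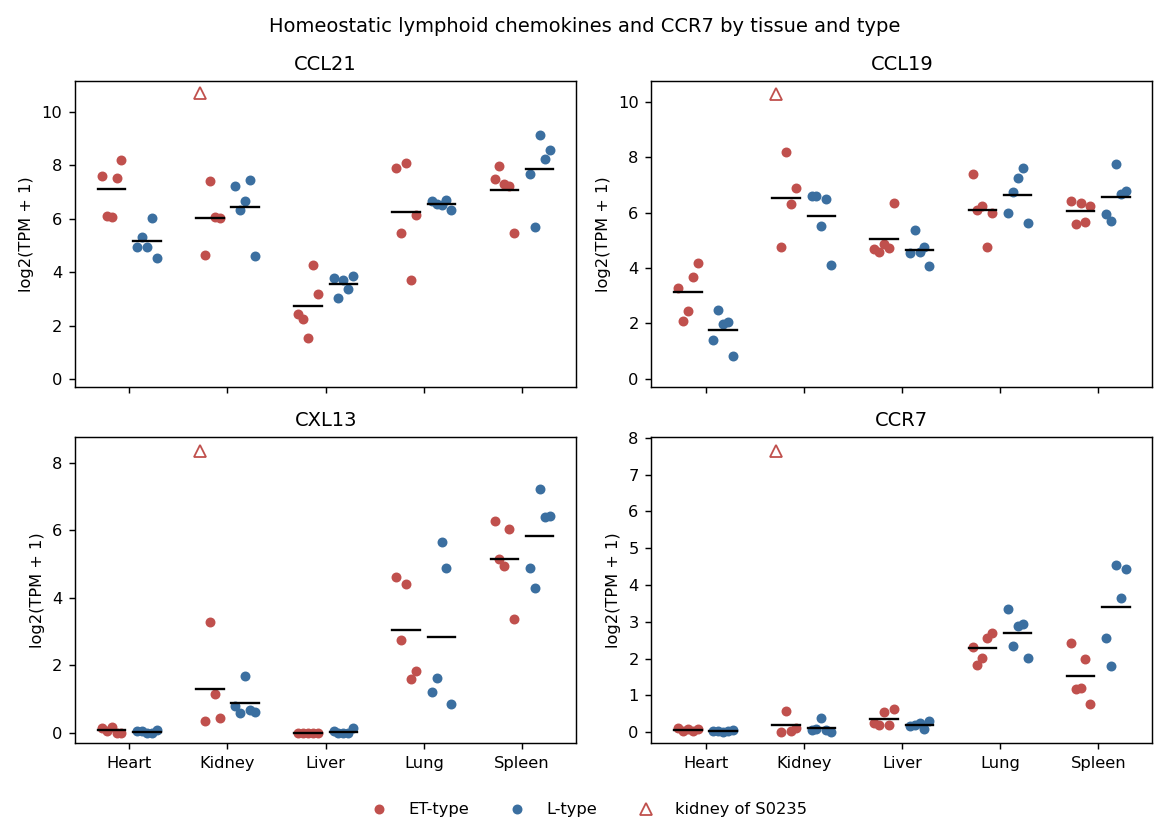
Points are libraries by tissue and type on a log2(TPM + 1) axis, with bars at the mean of each group without the kidney of S0235 (open triangle). CCR7 was near 0 in heart, kidney and liver, and in spleen 4 L-type animals lay above all ET-type animals, S0349 by a narrow gap.

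Of the pathway genes outside the naming rule (other chemokines, atypical receptors, and signalling proteins such as G proteins, kinases and RGS proteins), 37 of 39 listed were matched and 36 tested between tissues. 21 were called higher in spleen, 7 in lung, 3 in liver and 1 each in heart (X3CL1, the membrane-bound ligand fractalkine) and kidney (ACKR3, the scavenger of CXCL12). Of all units 9.59% were called in spleen, 26.5% in lung, 7.95% in liver, 5.48% in heart and 12.9% in kidney, so that the list lay above the background in spleen and below it in lung. In spleen the smallest p belonged to RGS18, which shortens G protein signals (4.19 ± 0.18, SE), PI3R5, DOCK2 and PK3CG, which carry leukocyte migration signals. In lung they were the platelet chemokines PLF4 (2.93 ± 0.12) and CXCL7 (3.33 ± 0.18), with ARRB1 (2.89 ± 0.14), an arrestin, and CD9 (3.74 ± 0.23). In liver they were DPP4, a peptidase that trims chemokines (2.24 ± 0.22), RGS16 and GROA.

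Between the types, spleen gave the most calls among these entries, all of receptors and all lower in ET-type. CXCR4, CCR7 and CCR4 were called, 3 of 28 tested entries. Of all units 22.2% were called in spleen (5339 of 24007), 21.5% lower and 0.696% higher in ET-type, so the share of entries called lay below the background. Of the 28 entries 26 had a difference below 0, with a median of -0.63 against -0.47 over all units. This describes the entries that passed the filter of 1 TPM. CCL16, CCL17 and CCR4 passed it only through L-type, and none passed only through ET-type.

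CXCR4 is carried by most leukocytes. It was 18.6, 17.2, 11.14, 21.5 and 10.7 TPM in ET-type spleens and 33.2, 22.3, 51.9, 45.8 and 62.9 TPM in L-type spleens, so that the groups did not overlap, though the nearest values were 21.5 and 22.3. CCR10, the skin and mucosal homing receptor, was the only other entry whose groups did not overlap in spleen, and 15.8% of all units had groups that did not. The difference of CXCR4 was -1.36 ± 0.28 (SE, log2(TPM + 1), adjusted p = 0.0240, limma).

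CCR7 was 4.40, 1.26, 1.32, 3.004 and 0.717 TPM in ET-type and 4.92, 2.51, 22.4, 11.4 and 20.7 TPM in L-type spleens. The L-type animals S0377, S0384 and S0385 were high, S0349 lay just above the ET-type animals and S0355 among them. The difference was -1.88 ± 0.51 (SE, adjusted p = 0.0315). CCR4, the receptor of CCL17 and CCL22, was low throughout, at 1.04, 0.391, 0.222, 0.970 and 0.280 TPM against 1.71, 0.840, 1.66, 1.86 and 2.66 TPM, with a difference of -0.80 ± 0.24 (SE, adjusted p = 0.0387). CCR4 passed the filter of 1 TPM only through L-type, with means of 0.581 TPM in ET-type and 1.75 TPM in L-type.

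The ligands of CCR7 did not pass in spleen. CCL21 was 179, 250, 154, 147 and 42.8 TPM in ET-type and 204, 50.5, 555, 301 and 373 TPM in L-type spleens. CCL19 was 84.1, 46.7, 80.0, 50.01 and 75.4 TPM against 60.9, 50.6, 213, 102 and 109 TPM. CXL13 was 76.7, 34.2, 29.8, 64.7 and 9.34 TPM against 28.2, 18.5, 147, 83.6 and 84.9 TPM, and its receptor CXCR5 6.47, 3.92, 1.62, 4.41 and 1.81 against 3.65, 1.64, 24.04, 9.22 and 13.5 TPM. In each of the 4 the L-type animals S0377, S0384 and S0385 held the highest L-type values, S0349 and S0355 fell among the ET-type animals, and the groups overlapped.

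**Figure D3:**
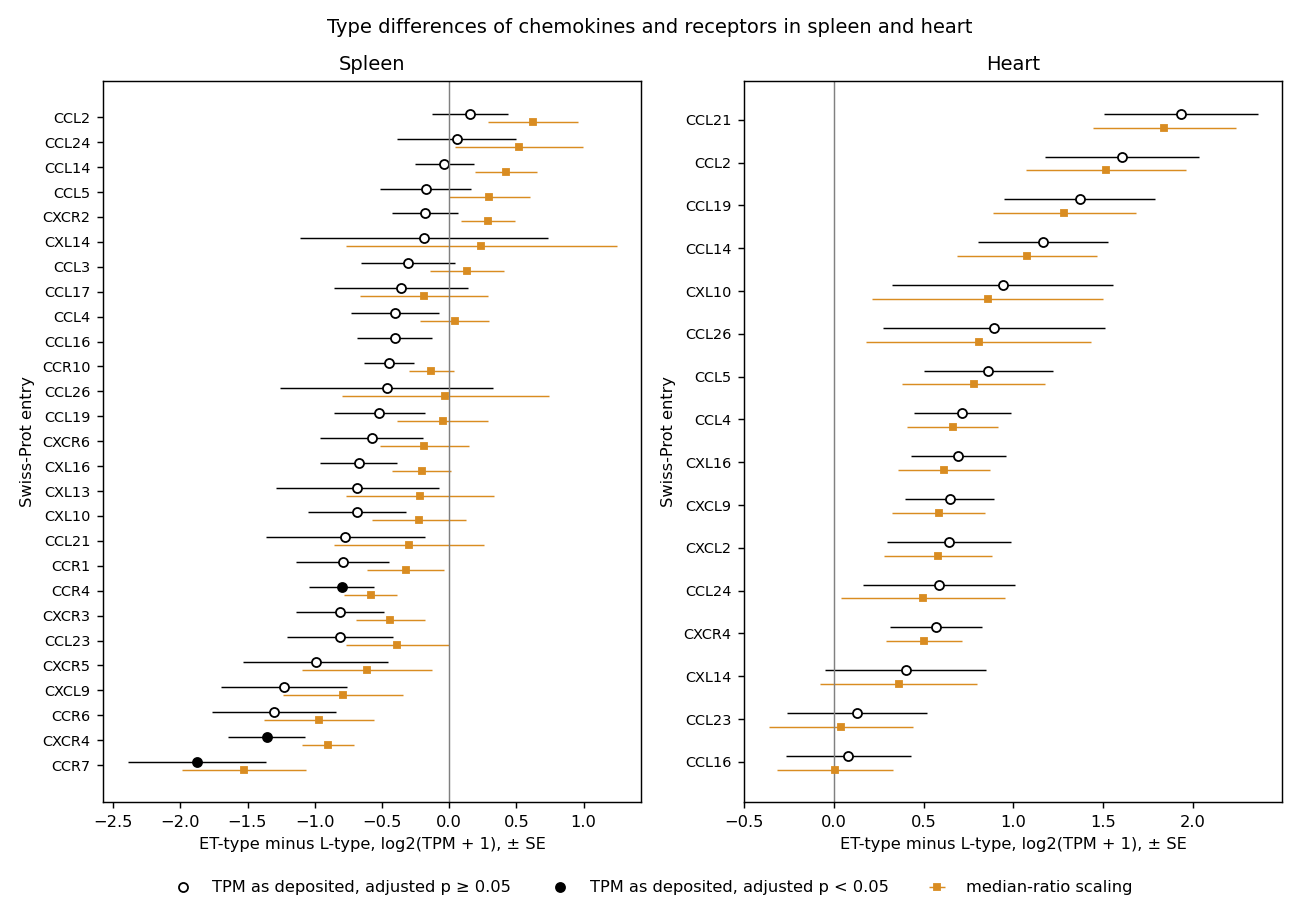
Circles give the ET-type minus L-type difference of the plotted entries with its SE, filled where the adjusted p was below 0.05, and squares the same after median-ratio scaling. In spleen 2 circles and 8 squares lie above 0 and the others below; in heart both lie above 0 for every plotted entry and none passed.

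The spleen differences depended on the scaling. Median-ratio scaling moved the median of all units from -0.47 to -0.08, and under it 19 of 28 entries were below 0 with a median of -0.20. CXCR4 stayed called (-0.90, adjusted p = 0.0463), while CCR7 (-1.52, adjusted p = 0.0793) and CCR4 (-0.58, adjusted p = 0.103) did not. Of all units, 529 were then called, 225 of them higher, against 167 higher of 5339 before. With haemoglobin left out, CXCR4 alone was called, and CCR7 was at -1.75 (adjusted p = 0.0520). No entry was called without S0276, S0326, S0377 or S0385, 1 without S0242 or S0384, and 4 to 6 without any of the other 4 animals. With all libraries in 1 fit and the animal as a block, 5 entries were called.

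Markers of several cell types were also called in the same spleens, where 21.5% of all units were called lower in ET-type. T lymphocyte markers were lower in ET-type, with 12 of 14 tested called (0 after median-ratio scaling, with all 14 still below 0), and their sum ran from 137 to 328 TPM in ET-type and from 316 to 861 TPM in L-type spleens. B lymphocyte markers (3 of 11 called lower) summed to 72.6 to 179 TPM against 115 to 840 TPM, and dendritic cell markers (4 of 8 called lower) to 168 to 324 TPM against 263 to 381 TPM. Macrophage and monocyte markers summed to 14961 to 27876 TPM against 21093 to 27658 TPM, and neutrophil markers to 74.98 to 146 TPM against 74.96 to 143 TPM, with 2 of 4 tested (S10A8 and S10A9) called higher in ET-type. The neutrophil list includes CXCR2, itself an entry described here, at 53.7 to 128 TPM in these spleens. The part of the listed cell types in the differences of the receptors was not tested. Among spleens with haemoglobin between 11.0% and 17.9% of TPM, CXCR4 was 18.6, 17.2 and 21.5 TPM in 3 ET-type and 33.2 and 22.3 TPM in 2 L-type animals. In the same 5 spleens the types overlapped for CCR7 (4.40, 1.26 and 3.004 against 4.92 and 2.51 TPM) and for CCR4 (1.04, 0.391 and 0.970 against 1.71 and 0.840 TPM). The bounds are shares of these spleens themselves, taken after they were seen. The part of the haemoglobin share was not tested.

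**Figure D4:**
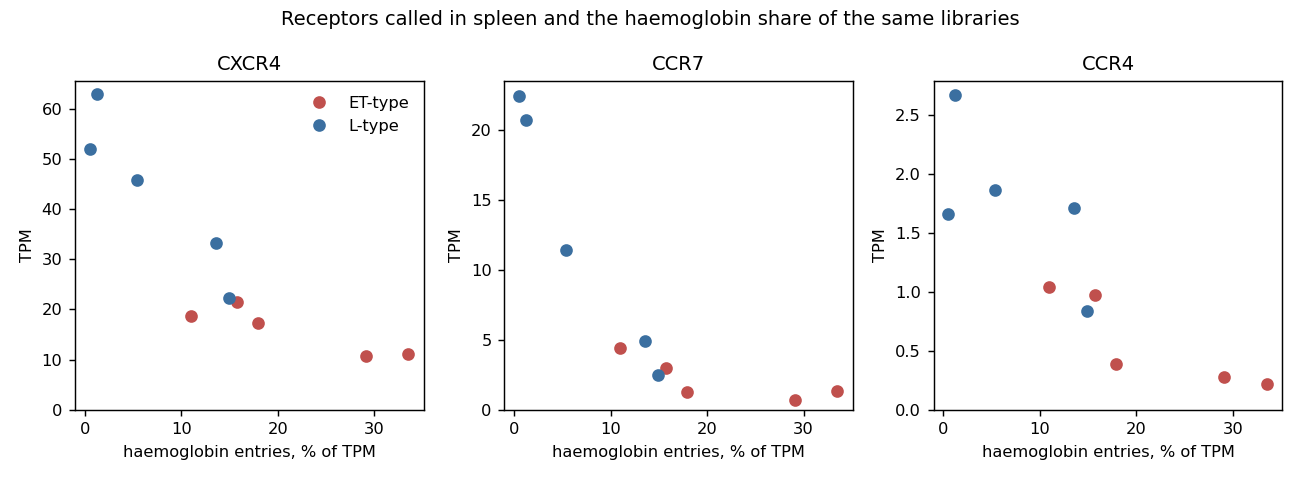
Each point is 1 spleen, with the haemoglobin share of its TPM on the horizontal axis and the TPM of the receptor on the vertical axis. The 3 L-type spleens with the lowest shares (0.548% to 5.41%) had the highest CXCR4 and CCR7, and the ET-type spleens lay at 11.0% or more.

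Of the pathway genes outside the naming rule 8 of 33 tested were called in spleen, all lower in ET-type, a share near the 21.5% of all units, with a median difference of -0.56 against -0.47 over all units. The 4 with the smallest p were X3CL1, fractalkine (-1.09 ± 0.29, SE, adjusted p = 0.0301), GRK5, a receptor kinase (-0.79 ± 0.22, adjusted p = 0.0311), RGS18 (-0.78 ± 0.22, adjusted p = 0.0339) and ACKR4, the scavenger of CCL19 and CCL21 (-0.81 ± 0.24, adjusted p = 0.0376). None of the list was called after median-ratio scaling, where the lowest adjusted p was 0.0728.

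In lung, CCL16 was called lower in ET-type, 1 of 35 tested entries, where 0.213% of all units were called, 0.185% lower and 0.0275% higher in ET-type. It was 0.622, 0, 0.365, 0.287 and 0.618 TPM in ET-type and 2.60, 2.27, 1.57, 2.67 and 2.44 TPM in L-type lungs, so that the groups did not overlap. The difference was -1.27 ± 0.21 (SE, adjusted p = 0.0450), and CCL16 passed the filter of 1 TPM only through L-type, with means of 0.378 and 2.31 TPM. With a pseudocount of 0.1 the difference was -2.60 and did not pass (adjusted p = 0.107), and with 1 animal left out it passed only without S0377. It did not pass in the fit with the animal as a block. Hepatocyte markers summed to 196 to 670 TPM in ET-type and 200 to 499 TPM in L-type lungs, which overlapped. Their part in the CCL16 difference was not tested.

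CCL5, a ligand of CCR1 made by T and natural killer cells, came next in lung. It was 27.2, 18.7, 36.3, 26.8 and 26.5 TPM in ET-type and 52.1, 49.9, 44.3, 57.5 and 55.7 TPM in L-type lungs, again without overlap, with a difference of -0.94 ± 0.17 (SE), and did not pass (adjusted p = 0.0603). It was called in 1 of 18 alternatives. Its transcript assembled from L-type lymph tissue was 4.08 to 14.8 TPM in ET-type and 18.1 to 57.5 TPM in L-type lungs. The transcript from ET-type backfat was 12.4 to 30.9 TPM in ET-type and 0, 8.43, 7.88, 0 and 37.7 TPM in L-type lungs. CCL24 was the third entry whose groups did not overlap in lung, and 4.20% of all units had such groups. Of the 35 entries 22 were below 0, with a median of -0.29 against -0.15 over all units, and after median-ratio scaling 20 were, with -0.20 against -0.03. Macrophage and monocyte markers summed to 211 to 811 TPM in ET-type and 863 to 2832 TPM in L-type lungs; their part in these differences was not tested.

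In heart the tested entries lay higher in ET-type, but none passed. Only 17 of the 37 entries had a mean of at least 1 TPM there, and 3 of them (CCL4, CXCL9 and CXL14) passed only through ET-type. All 17 differences lay above 0, which is a description of the entries that passed, with a median of 0.69 against 0.09 over all units. By limma 0 of 17 were called (0.0238% of all units were, 0.0143% higher and 0.00952% lower in ET-type), 9 of 17 had an unadjusted p below 0.05 against 22.2% of all units, and the fit with the animal as a block called 1, CCL2. Without ET-type S0242, 5 were called: CCL14, CCL19, CCL21, CXCL9 and CXL16.

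CCL21 had the smallest p in heart. It was 193, 67.0, 66.1, 182 and 294 TPM in ET-type and 29.95, 39.0, 30.03, 64.7 and 22.3 TPM in L-type hearts, so that the groups did not overlap, at 66.1 and 64.7 TPM by a narrow gap. It was the only such entry in heart, where 4.68% of all units had groups that did not overlap. The difference was 1.93 ± 0.43 (SE, adjusted p = 0.0863), and 2.18 without S0242 (adjusted p = 0.0250). CCL2, the monocyte chemoattractant, was 50.2, 38.8, 27.0, 36.2 and 73.6 TPM against 28.9, 21.5, 17.2, 6.36 and 5.70 TPM, with overlap between S0276 and S0349, and a difference of 1.61 ± 0.43 (SE, adjusted p = 0.0940).

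CCL19 did not pass in heart either (1.37 ± 0.42, SE, adjusted p = 0.113). It was 8.65, 3.20, 4.41, 11.8 and 17.0 TPM in ET-type and 1.65, 4.59, 2.98, 3.18 and 0.776 TPM in L-type hearts. S0326 was the highest ET-type heart in CCL21, CCL2 and CCL19. Endothelial markers summed to 265 to 730 TPM in ET-type and 188 to 345 TPM in L-type hearts, with all 12 above 0, and macrophage and monocyte markers to 251 to 488 TPM against 99.4 to 341 TPM. None of these marker genes was called in heart, and their part in the chemokine differences was not tested.

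In liver and kidney no entry was called, and 0 entries had groups that did not overlap, against 1.08% of all units in liver and 2.92% in kidney. In liver 0 of 18 tested passed by limma (0.00933% of all units), with 2 of 18 at an unadjusted p below 0.05 (6.58% of all units) and none called with the animal as a block. CCL3 was 697, 759, 529, 622 and 417 TPM in ET-type and 923, 1101, 1187, 991 and 677 TPM in L-type livers (-0.69 ± 0.23, SE, adjusted p = 0.639), with overlap from S0385, and it rests on the transcript of 66.7% identity. CCL2 was 4.07, 2.86, 4.86, 3.80 and 6.65 TPM against 3.21, 1.31, 1.66, 1.59 and 3.06 TPM (0.79 ± 0.27, SE, adjusted p = 0.642).

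In kidney, with 4 ET-type against 5 L-type animals, 0 of 24 passed by limma (0.00376% of all units), with 3 of 24 at an unadjusted p below 0.05 (8.70% of all units). CCL8, a monocyte chemokine, was 1.77, 8.54, 6.92 and 7.18 TPM in ET-type and 4.16, 0.4929, 2.14, 0.552 and 1.84 TPM in L-type kidneys (1.34 ± 0.46, SE, adjusted p = 0.573). The groups overlapped through S0242, and CCL8 was called only in the fit with the animal as a block (adjusted p = 0.0403). CCL3 was 0.744, 6.21, 3.21 and 3.78 TPM against 0.704, 0.400, 1.59, 1.24 and 1.77 TPM (0.94 ± 0.40, SE, adjusted p = 0.573).

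Averaged over heart, liver, lung and spleen, 0 of 34 entries differed between the types by limma (0.0104% of all units did, 0.00346% higher and 0.00693% lower in ET-type), with 7 of 34 at an unadjusted p below 0.05, near the 18.5% of all units. The smallest p were those of CCR7 (-0.53 ± 0.16, SE, adjusted p = 0.170) and CCL2 (0.65 ± 0.26, adjusted p = 0.225).

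Whether the type difference itself varied between tissues was tested by an interaction, in which CCR7 (adjusted p = 0.0125), CCL3 (adjusted p = 0.0401) and CXCR4 (adjusted p = 0.0457) passed, 3 of 35 entries, where 6.10% of all units did. For CCR7 the difference was -1.88 in spleen and -0.43 in lung, and in heart, kidney and liver CCR7 lay under the filter of 1 TPM. For CXCR4 it was -1.36 in spleen, -0.33 in kidney, 0.10 in lung and 0.57 in heart. In liver the CCL3 entry is held by the transcript of 66.7% identity and elsewhere mainly by others. Its test thus compares different transcripts between tissues. CCL3 no longer passed in 10 of 19 alternatives, CXCR4 in 12 of 19 and CCR7 in 6 of 18. This limma F test pools the spread of all tissues, and on simulated data with each tissue's own spread it made too many calls. An exact permutation test over the 10 animals, chosen after seeing the data, compared each tissue with the mean of the animal's other 3 tissues, kidney left out. In spleen the ET-type minus L-type difference of this contrast was -1.44 for CXCR4 (exact p = 0.00794, the smallest the design allows; adjusted over 12 tests 0.0571) and -1.80 for CCR7 (exact p = 0.0397, adjusted 0.0680). None of the 12 passed after adjustment. With the kidney of S0235 kept, 1 entry passed, CCL3. In the F test 6 entries passed without S0242, 1 without S0349, and 0 without S0276, S0326, S0377, S0384 or S0385.

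The kidney library of S0235 differed from the other 9 kidneys in most entries. Of the 37 entries 26 lay above every other kidney, 5 below and 6 within their range, where 25.9% of all units lay above and 25.6% below. Of the entries 16 were higher than in any of the other 49 libraries, 10 of them ligands and 6 receptors. The share of all units above those 49 libraries was not computed, so this count has no background to be read against. T lymphocyte markers summed to 3754 TPM there and to 19.5 to 115 TPM in the other kidneys. With 1 library there is no test, and what tissue it holds beside or in place of kidney was not tested.

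CCL21, CCL19 and CXL13 were the highest entries of this library. CCL21 was 1648 TPM against 23.1 to 174 TPM in the other kidneys and at most 555 TPM in any other library. CCL19 was 1247 TPM against 16.3 to 291, and their receptor CCR7 197 TPM against 0 to 0.506, where the highest spleen had 22.4 TPM. CXL13 was 320 TPM against 0.289 to 8.80, and CXCR5 22.5 TPM against 0 to 1.42.

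Other T cell and dendritic cell chemokines were high in it too. CCL17 was 85.9 TPM and CCL22 27.5 TPM, against at most 1.34 and 1.01 TPM in the other kidneys, with their receptor CCR4 at 9.72 TPM. CXCR4 was 205 TPM against 1.56 to 9.97, CXCL9 149 TPM against 0.357 to 13.5 and CXL10 214 TPM against 5.78 to 100.3. CCL16, CCL28, CCL25, CCL14 and CCL23 were below every other kidney, CCL28 at 0 and CCL16 at 0.0621 TPM against 5.69 to 71.0. The myeloid receptors CXCR2 (1.57 TPM) and CCR1 (6.43 TPM) lay above the other kidneys but below every spleen.

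Among the other kidneys, the ET-type animal S0276 stood highest, with 26 of 37 entries above the other 8, as were 11.3% of all units. Its summed TPM over the entries was 1097 against 228 to 546 in those 8. Macrophage and monocyte markers summed to 687 TPM in it against 99.1 to 198, T lymphocyte markers to 115 against 19.5 to 42.4, and natural killer markers to 219 against 12.7 to 55.3 TPM, and their part was not tested. CCL19 was 26.0, 291, 79.3 and 118 TPM in the ET-type kidneys of S0242, S0276, S0309 and S0326 and 96.8, 95.7, 44.6, 88.7 and 16.3 TPM in L-type kidneys. CCL21 was 23.9, 168, 65.2 and 64.6 against 149, 79.1, 99.96, 174 and 23.1 TPM, CXL13 0.289, 8.80, 1.21 and 0.374 against 0.754, 0.521, 2.26, 0.612 and 0.527 TPM. CCR7 did not exceed 0.506 TPM in any of the 9. The groups overlapped in each, and no entry was called with S0276 left out.

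Transcripts of 1 entry did not always move together, and CCL5 was the clearest case. Its 2 transcripts, assembled from ET-type backfat and from L-type lymph tissue, both match the bovine protein at 91.5% identity. The backfat transcript made up 55.6% to 86.8% of the CCL5 TPM in the ET-type animals, as the mean over each animal's tissues, and 0%, 10.6%, 16.8%, 0% and 67.6% in the L-type ones, in the order given above. It was listed at 0 in all 5 tissues of S0349 and S0384. The share varied between animals by an SD of 32.7 percentage points and within an animal, across its tissues, by 6.68. The groups overlapped through S0385. This pattern was noticed in the data, and it is given with no test.

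**Figure D5:**
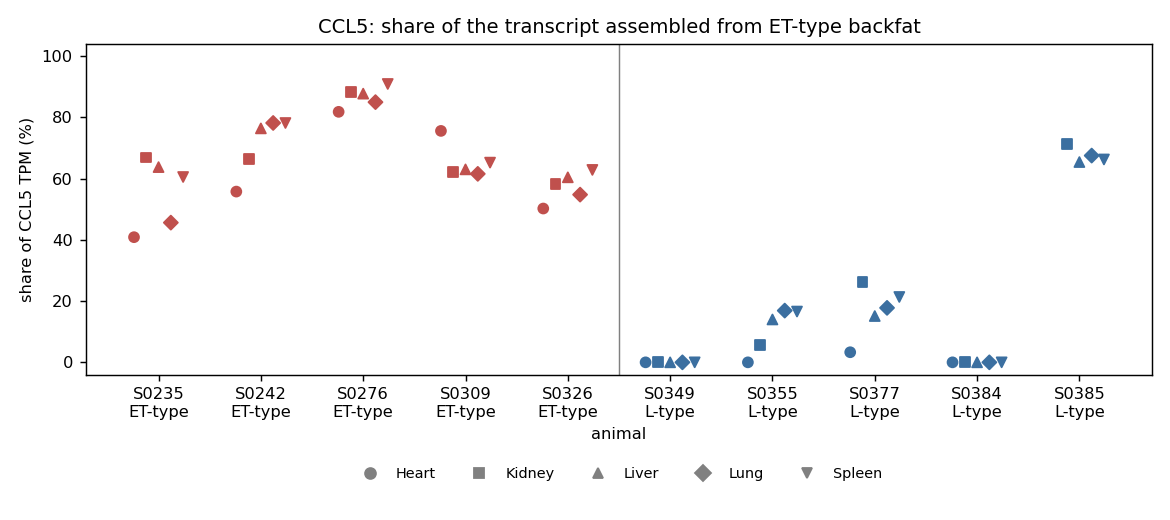
Each symbol is 1 library, with the share of its CCL5 TPM held by the transcript assembled from ET-type backfat, for libraries with at least 1 TPM of CCL5. The tissues of an animal lie close together, and the L-type animals other than S0385 lie at 26.2% or less.

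CCL26 showed a like split by animal: its transcript assembled from ET-type spleen made up 77.4% of the entry in S0235 and 51.8% in S0242 and 7.47% or less in the other 8. Which of the transcripts are alleles, copies or assembly products was not tested.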

How the data were processed

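Per the labels' protocols, total RNA was extracted with TRIzol and made into TruSeq Stranded mRNA libraries. Per the submitters' processing notes, Trimmomatic 0.36 and Salmon 1.10.0 were used and the build is Sscrofa11.1; their settings and the assembler are not given in the sources used here. The authors deposited TPM of 57085 assembled transcripts in 50 libraries, each summing to 1e+06, and a deposited annotation names a Swiss-Prot match, with its percent identity, for 63.9% of them. No read counts were given, so depth is unknown and no count model was run.

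TPM was summed by entry name over all transcripts that share it, which pools close relatives, and unmatched transcripts were kept as units of their own (35133 units in all). Values were analysed as log2(TPM + 1), which understates the change of low entries, for units with a mean of at least 1 TPM in the fit. Limma 3.58.1 (trend, empirical Bayes; R 4.3.3) compared ET-type with L-type in each tissue, the animal means over heart, liver, lung and spleen, the interaction of type and tissue, and each tissue with the mean of the other 4. P-values were adjusted by Benjamini-Hochberg over all units of a fit, and below 0.05 was called. The kidney library of S0235 was left out of these fits. Exact permutation tests used scipy 1.17.1, tables pandas 2.3.3, and figures matplotlib 3.10.9. Each fit was tested on simulated data.

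The animal numbers pair the tissues: with each group mean subtracted, 2 tissues of 1 animal had a mean r of 0.257 (96 pairs, 92 above 0.1), and tissues of different animals within a type -0.0645 (384 pairs). The fit with the animal as a block (within-animal correlation 0.124) was an alternative.

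The members, the lists and the rule for naming genes were chosen with earlier results of these data known. Named were CCL21, CCL19, CXL13, CCR7 and CCL16, in each type fit and the interaction the members that passed or, where fewer than 2 did, the 2 with the smallest p, up to 5 members with the largest difference per tissue, fixed ligand and receptor pairs, and up to 4 pathway genes per fit. Other entries named (in the kidneys of S0235 and S0276, for transcript shares and for groups without overlap) were chosen after their values were seen. Other settings tried were median-ratio scaling, a pseudocount of 0.1, a filter at 5 TPM or none, haemoglobin left out, matches of at least 70% identity, transcripts in place of entries, the animal block, the S0235 kidney kept and each animal left out. The exact test of the interaction and the set of spleens of like haemoglobin share were added after seeing the data. Animals are separate animals by their labels, and nothing is said of litters or sequencing batches. The values of 1 receptor entry are not reported here; it is part of the counts and sums but of no plot.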

Additional observations from a re-analysis of the deposited data

Results flagged for a closer look

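In the kidney library of S0235 4 homeostatic entries stood above the other 9 kidneys: CCL21 at 1648 TPM, CCL19 at 1247 TPM, CXL13 at 320 TPM and CCR7 at 197 TPM. This library was left out of the tests, apart from the fits in which it was kept as an alternative.

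The type difference itself differed between tissues in the interaction test for CCR7 (adjusted p = 0.0125), CCL3 (adjusted p = 0.0401) and CXCR4 (adjusted p = 0.0457). In the exact test over animals none of these passed after adjustment, with a lowest adjusted p of 0.0571. The CCL3 entry is held by different transcripts in liver and in the other tissues.

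In 5 of 60 groups of 4 or 5 libraries, 1 library stood far from the others; chance flags about 1 in 20 groups. CXL13 was 8.80 TPM in the ET-type kidney of S0276, above the other 3. In L-type kidneys S0377 was the highest for CXL13 (2.26 TPM) and for CCR7 (0.296 TPM). CCL23 was 71.9 TPM in the ET-type lung of S0309, below the other 4. CCR1 was 40.5 TPM in the L-type spleen of S0384, below the other 4.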

How the results depend on the processing

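With the animal as a replicate block, 1 entry was called between types in heart, 1 in kidney, 0 in lung and 5 in spleen, and 5 in the interaction, against 0, 0, 1, 3 and 3; it changed no other count by more than 1.5 times. In lung 0 were called with a pseudocount of 0.1 and 0 with a mean of at least 5 TPM. In spleen 1 was called after median-ratio scaling, 1 with haemoglobin left out and 5 with transcripts in place of entries. The interaction gave 1 with the kidney library of S0235 kept. Between tissues, a mean of at least 5 TPM left 0 entries higher in kidney, 4 in lung and 9 in spleen, since fewer entries were tested. Median-ratio scaling left 5 in lung, and haemoglobin left out left 1 in heart, and the cause of these changes was not tested. Matches of at least 70% identity also left 1 in heart, where CCL14 and CCL24 have no match that high and so drop out.

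With 1 animal left out, the calls between types ran from 0 to 5 in heart, from 0 to 2 in lung, from 0 to 6 in spleen and from 0 to 6 in the interaction, and the entries higher in heart from 1 to 3 (1 without S0326). Heart had 5 only without S0242. CCL3 changed sign with matches of at least 70% identity, where the transcript of 66.7% was dropped: its type difference in liver was 0.029 and its liver difference from the other tissues -0.80. Apart from CCL3, none of the 36 pairs of entry and fit that were followed through the alternatives changed sign. Other entries were not followed in this way, and in spleen some of them changed sign with median-ratio scaling. TPM near 1 cannot be judged for counting error without the depth.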

Other observations

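CXCR2, CXL17, CCL2 and CCL19 also had more than 1 transcript of at least 1 TPM on average, and in each the leading transcript held 82.9% or more of the entry in every animal on average. In CCL14 the leading transcript held 66.4% to 84.4% in L-type and 81.4% to 94.1% in ET-type animals, and a transcript assembled from L-type tenderloin 9.98% to 24.1% in L-type and 0.831% to 11.11% in ET-type animals. In CXL14, whose 3 transcripts each matched the mouse protein at 98.8% identity, no transcript led in all animals: the one assembled from L-type spleen held 35.3% to 85.1%.

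CCL8, at 1.49 TPM, CXL16 (20.04 TPM) and CCL24 (19.5 TPM) stayed within the range of the other kidneys in the kidney library of S0235, where 26 entries rose above it.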
